A study of Sus scrofa with 24 samples.

Results

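The genes described here are the aryl hydrocarbon receptor AHR, its partner ARNT, its repressor AHRR, and 4 of its best known target genes, TIPARP, CYP1A1, CYP1B1 and ALDH3A1, in cultured airway epithelium of the pig. They are 7 of the 25880 pig genes in the deposited count table, and all 7 were among the 14172 genes with enough counts to be tested. The members were chosen by symbol, with earlier results of these cultures known, and they were picked to be followed over time in culture and with SB203580. For those comparisons the values are therefore given as a description, with fold changes and standard errors and with no test of the members.

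AHR is a transcription factor that waits in the cytoplasm in a complex with chaperones. When it binds a ligand, such as a dioxin, a polycyclic hydrocarbon of smoke, or an indole or kynurenine made from tryptophan, it moves to the nucleus, pairs with ARNT and binds xenobiotic response elements. Its classical targets are enzymes that oxidise the ligand, above all the monooxygenases CYP1A1 and CYP1B1, together with AHRR and TIPARP, which restrain the receptor in return. The epithelium of the large airways is a barrier to inhaled smoke and dust, and CYP1A1 and CYP1B1 are the genes by which exposure of this tissue is commonly read.

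The cultures came from the bronchi of wild-type pigs aged 1 month, and the cells had been grown on membranes with their upper surface in air. They fall into 6 groups of 4 libraries. In SB203580 plus flagellin, the cells were given 20 µM SB203580, an inhibitor of p38 MAP kinases, for 1 h before flagellin, the bacterial protein sensed by TLR5, was added at 100 ng/ml. In flagellin, they had the solvent DMSO for 1 h and then flagellin, and in PBS they had DMSO and then PBS. Each treatment was sampled at 24 h and at 2 h. Flagellin was given in every culture that had SB203580; cultures with the inhibitor alone were not analysed here. PBS cultures were sampled at both times, so that time in culture can be followed without flagellin. Whether the 4 replicates of a group came from different pigs is not stated in the labels. The p-values therefore describe the spread among the sequenced libraries, part of which may be technical.

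The libraries held 26345945 to 36267289 counts in pig genes (median 32494269.5). Levels below are CPM, counts scaled to the library size after TMM correction. A count of 0 in a library allows up to 3 counts, which is 0.0827 to 0.114 CPM; this covers counting error only. Epithelial markers were high throughout, with a summed level of the 5 matched genes of 3351 to 5237 CPM. Of 7 leukocyte markers, CD14 lay at 6.30 to 119 CPM and CD68 at 5.36 to 28.4 CPM. CSF1R reached at most 2.71 CPM, ITGAM 0.602, PTPRC 0.113 and MS4A1 0.0350, and CD3E had 0 counts. Of 3 matched endothelial markers, KDR lay at 77.5 to 509 CPM and PECAM1 at 1.89 to 6.34 CPM, and CDH5 reached at most 0.0558 CPM. Replicates 3 and 4 stood apart from replicates 1 and 2 in all 6 groups. With a term for this split, which was itself seen in these data, 8949 of the 14172 genes (63.1%) passed edgeR's quasi-likelihood test at an adjusted p under 0.05. Each group holds 2 libraries from either side, and the results below are given within each side where they differ. In bulk RNA, fewer cells of a type and less RNA per cell cannot be told apart.

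The receptor and its partner varied least. AHR (ENSSSCG00000030484), at chromosome 9, 86511339 to 86556143 in the deposited table, lay between 49.6 and 106 CPM over all 24 libraries, a ratio of 2.14 from highest to lowest. It averaged 78.2 ± 10.4 CPM in SB203580 plus flagellin, 82.2 ± 26.8 in flagellin and 88.1 ± 13.4 in PBS at 24 h (SD, n = 4 each). At 2 h the averages were 79.4 ± 7.63, 84.0 ± 8.03 and 99.4 ± 7.26 CPM in the same order. Neighbours in the order of the 6 group means had overlapping ranges. PBS at 2 h (91.5 to 106 CPM) nevertheless lay wholly above SB203580 plus flagellin at 2 h (74.6 to 90.7 CPM) and at 24 h (66.5 to 87.0 CPM). ARNT (ENSSSCG00000006646), at chromosome 4, 98333459 to 98404961, lay between 63.6 and 87.5 CPM, a ratio of 1.38. Its 3 highest group means were those of 24 h, between 76.9 and 80.9 CPM, and its 3 lowest those of 2 h, between 68.4 and 73.4 CPM, again with neighbouring ranges that overlap. In RPKM, reads scaled to exon length and library size, the median level over the 24 libraries was 15.0 for AHR and 13.04 for ARNT.

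CYP1A1 and CYP1B1 varied over a far wider range than the receptor pair. CYP1A1, the monooxygenase whose induction is the usual sign of an active AHR (gene ENSSSCG00000001906), lies on chromosome 7 at 58802880 to 58809775. Its level was 170, 68.8, 21.5 and 14.4 CPM in replicates 1 to 4, the order used for all lists of 4 values, of SB203580 plus flagellin at 24 h, against 10.3, 8.02, 3.73 and 2.67 CPM in flagellin at 24 h. In PBS at 24 h it was 10.5, 9.40, 2.29 and 4.29 CPM. All 4 cultures with SB203580 at 24 h thus lay above all 8 cultures without it at that time. At 2 h CYP1A1 stood at 54.9, 53.9, 291 and 191 CPM in SB203580 plus flagellin, against 28.7, 19.1, 62.3 and 78.7 CPM in flagellin. The PBS cultures of 2 h had 20.1, 103, 547 and 153 CPM. Within PBS at 2 h replicate 3 was 547 CPM and replicate 1 was 20.1 CPM, so this group overlaps both other groups of that time. The whole range of the gene, 2.29 to 547 CPM, is a ratio of 239.

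CYP1B1, a related monooxygenase that also acts on oestrogens and polycyclic hydrocarbons (gene ENSSSCG00000033844), lies on chromosome 3 at 102195741 to 102206375. It had 239, 165, 92.3 and 77.0 CPM in SB203580 plus flagellin at 24 h, against 45.2, 40.3, 29.0 and 25.8 CPM in flagellin and 34.7, 35.1, 23.2 and 19.7 CPM in PBS. The cultures with SB203580 were again the 4 highest of the 12 at that time. At 2 h its level was 290, 252, 830 and 658 CPM in SB203580 plus flagellin, against 166, 139, 217 and 395 CPM in flagellin and 126, 195, 878 and 463 CPM in PBS. Every group of 2 h overlapped the other 2 groups of that time. Per exon length CYP1B1 was the more abundant of the pair in each of the 24 libraries, with a ratio of CYP1B1 to CYP1A1 in RPKM between 1.19 and 8.60. That ratio averaged 2.85 in SB203580 plus flagellin, 5.69 in flagellin and 4.61 in PBS at 24 h, and 3.44, 4.57 and 2.72 in the same order at 2 h. The neighbouring gene CYP1A2, another AHR target, had 31 counts over all 24 libraries and was not tested; reads that the pair share could not be assigned from these counts.

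**Figure D1:**
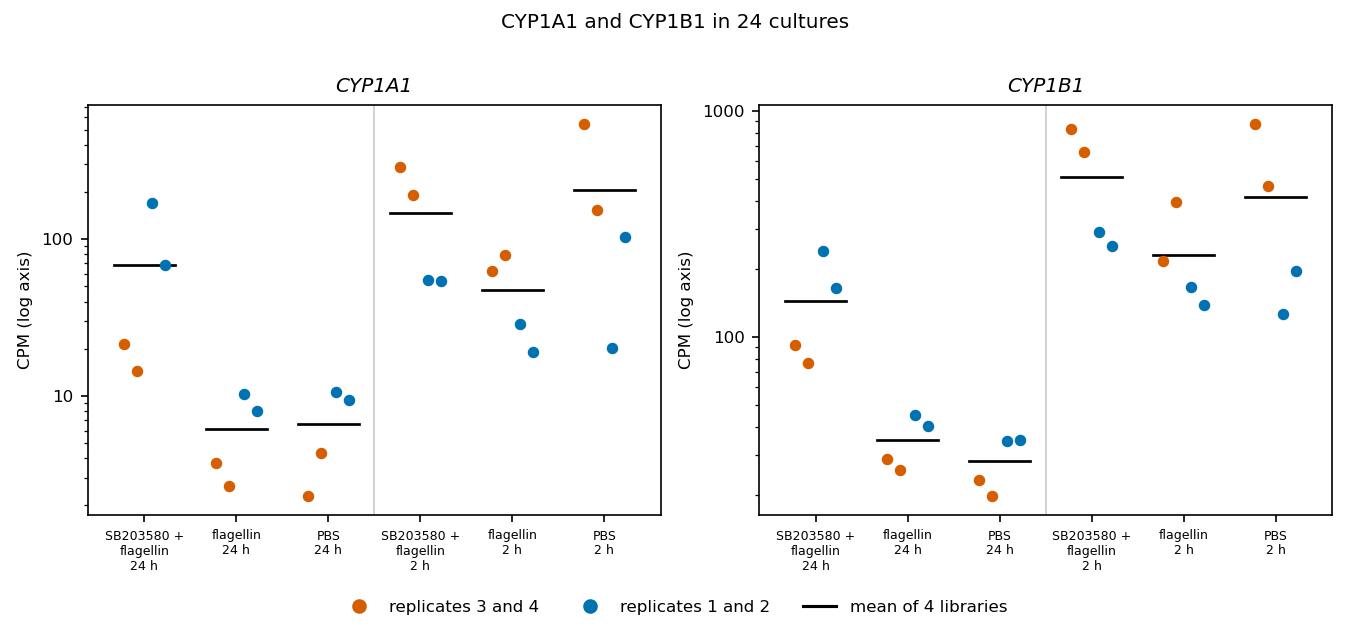
Level of CYP1A1 (left) and CYP1B1 (right) in CPM (counts scaled to library size, log axis) for each of the 24 libraries, by treatment and time; points are libraries, coloured by replicate number, and bars are means of 4. At 24 h the 4 cultures with SB203580 plus flagellin lie above all 8 others for both genes, and replicates 3 and 4 lie below replicates 1 and 2 at 24 h but mostly above them at 2 h.

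The genes that restrain the receptor differed from each other. TIPARP, a PARP family enzyme that ADP-ribosylates AHR (gene ENSSSCG00000027646), lies on chromosome 13 at 96496405 to 96525731. It had 307, 271, 214 and 203 CPM in SB203580 plus flagellin at 24 h, against 232, 322, 216 and 210 CPM in flagellin and 216, 221, 199 and 243 CPM in PBS. At 2 h it had 317, 283, 654 and 594 CPM in SB203580 plus flagellin, against 294, 320, 546 and 566 CPM in flagellin and 306, 367, 714 and 574 CPM in PBS. Replicates 3 and 4 held the high values of 2 h in all 3 treatments. TIPARP had the highest level of the 7 genes per exon length, with a median of 63.9 RPKM.

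AHRR, which competes with AHR for ARNT (gene ENSSSCG00000032843), lies on chromosome 16 at 79730926 to 79810188 and had a median of 1.10 RPKM. Its level was 12.02, 10.6, 1.27 and 1.42 CPM in SB203580 plus flagellin at 24 h, against 4.58, 7.50, 0.632 and 0.596 CPM in flagellin and 4.75, 4.72, 0.371 and 4.45 CPM in PBS. At 24 h all libraries of replicates 3 and 4 were below all of replicates 1 and 2. At 2 h the range over all 3 treatments was 4.19 to 11.0 CPM.

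ALDH3A1, an aldehyde dehydrogenase (gene ENSSSCG00000018044), lies on chromosome 12 at 59900129 to 59905967. In replicates 3 and 4 it never exceeded 0.197 CPM. In replicates 1 and 2 it had 12.8 and 7.01 CPM in SB203580 plus flagellin, 1.78 and 44.1 CPM in flagellin, and 2.18 and 3.33 CPM in PBS at 24 h. At 2 h the same replicates had 17.7 and 3.81, 2.64 and 4.21, and 5.69 and 10.0 CPM in the same order of treatments. Its levels in the 12 libraries of replicates 3 and 4, 0.0599 to 0.197 CPM, straddle the level of 3 counts, whereas the other 12 libraries span 1.78 to 44.1 CPM.

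**Figure D2:**
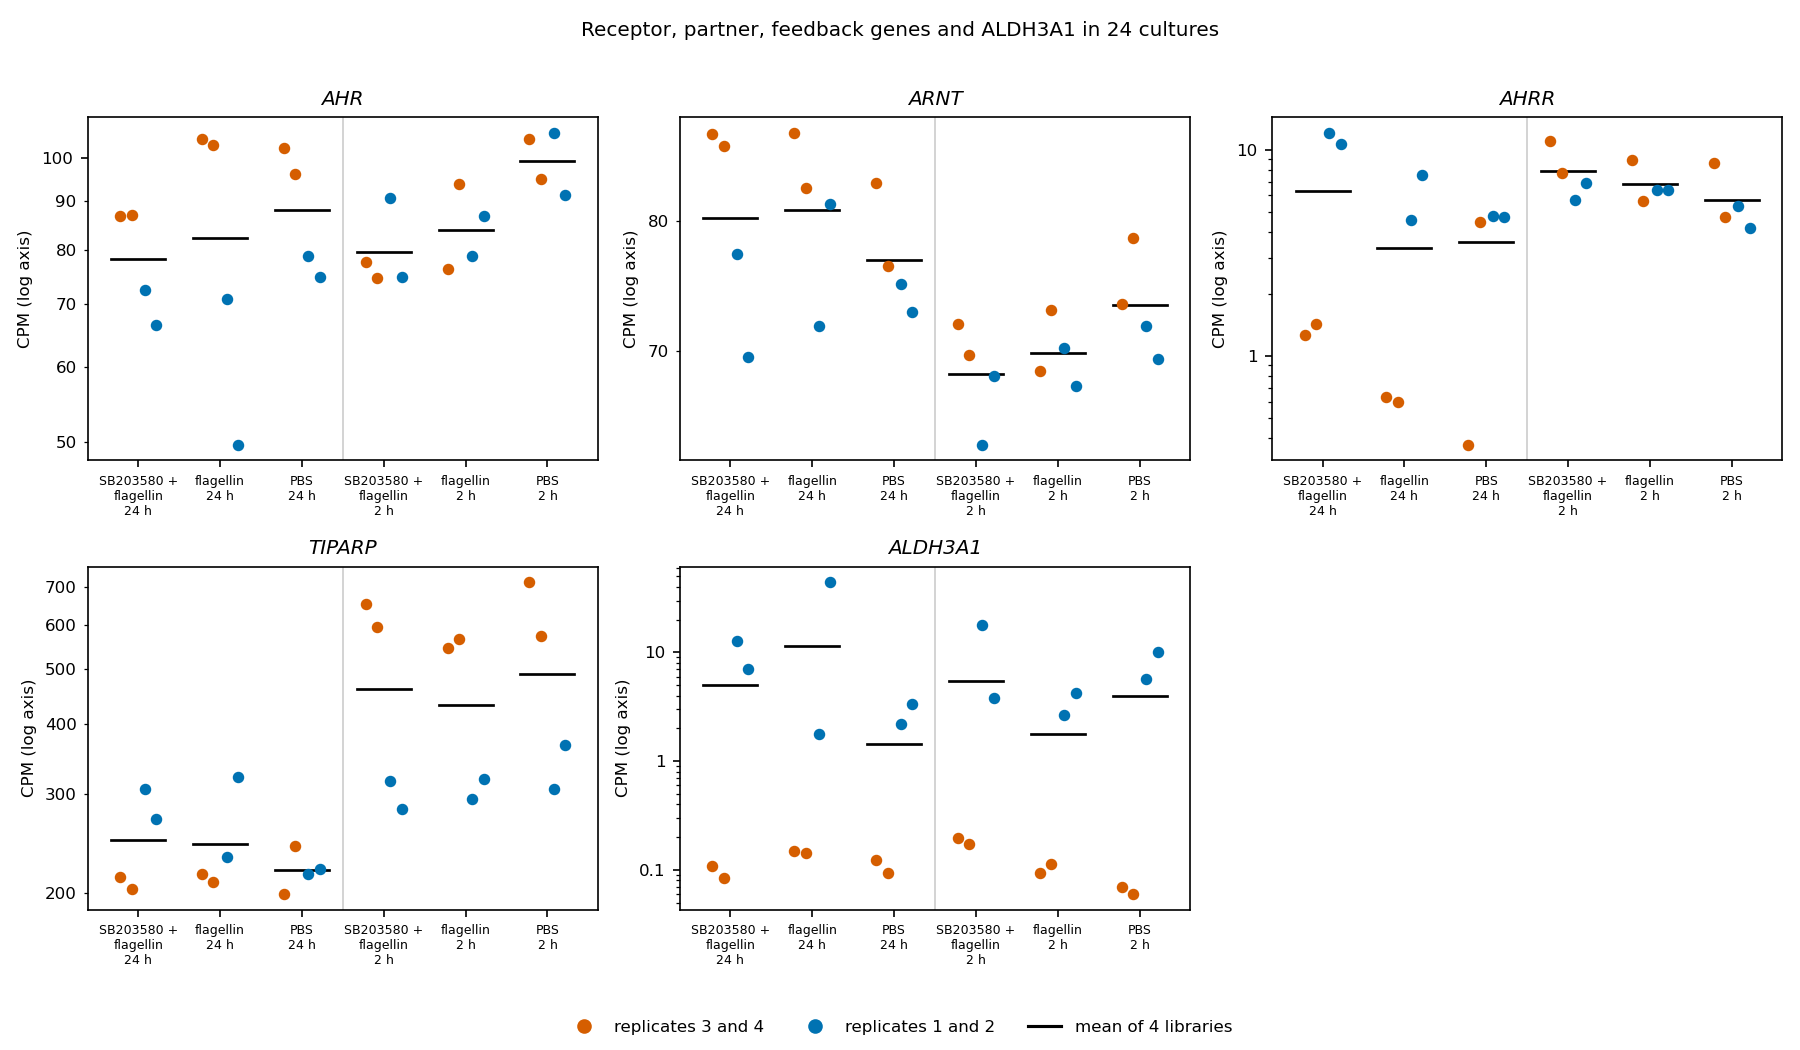
Level of AHR, ARNT, AHRR, TIPARP and ALDH3A1 in CPM (counts scaled to library size, log axes of different span) in each of the 24 libraries by treatment and time; points are libraries, coloured by replicate number, and bars are means of 4. AHR and ARNT stay within 49.6 to 106 CPM, TIPARP is highest in replicates 3 and 4 at 2 h, and ALDH3A1 stays under 0.197 CPM in replicates 3 and 4.

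Flagellin against PBS did not enter the choice of the genes and was tested, although it shares its cultures with the comparisons that did. At 2 h none of the 7 members passed edgeR's quasi-likelihood test, where 46 of 14172 genes did (0.325%; 721 genes at an unadjusted p under 0.05). CYP1A1 averaged 47.2 ± 28.0 CPM in flagellin and 206 ± 234 CPM in PBS (SD, n = 4 each). Its log2 fold change was -2.12 ± 0.88 (SE), with an adjusted p of 0.786 by edgeR, and it was lower in 3 of 4 replicate numbers. With a term for replicates 3 and 4 at each time, the log2 fold change of CYP1A1 was -1.84 ± 0.47 and its adjusted p by edgeR was 0.0451. CYP1A1 was then the one member among the 318 genes that passed (2.24%). Without replicate 3 of PBS, and with no such term, its log2 fold change was -0.96. CYP1B1 averaged 229 ± 115 CPM in flagellin and 416 ± 341 CPM in PBS at 2 h. Its log2 fold change was -0.86 ± 0.52, and with the same term it was -0.61 with an adjusted p of 0.234. Without replicate 3 of PBS, and again with no such term, it was -0.19. AHR was lower in 4 of 4 replicate numbers with flagellin, by a log2 value of -0.24 ± 0.17 (adjusted p = 1 by edgeR). ARNT (-0.07 ± 0.08) and TIPARP (-0.18 ± 0.29) were likewise lower in 4 of 4, AHRR was higher in 4 of 4 (0.25 ± 0.77), and ALDH3A1 stood at -1.17 ± 1.87; none of these passed.

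At 24 h no member passed for flagellin against PBS, and 0 of the 14172 genes passed (0%; 112 genes at an unadjusted p under 0.05, and 1 gene by DESeq2). The log2 fold change of CYP1A1 was -0.10 ± 0.87 and that of CYP1B1 was 0.32 ± 0.52. AHR stood at -0.10 ± 0.17, ARNT at 0.07 ± 0.08, TIPARP at 0.16 ± 0.29 and AHRR at -0.11 ± 0.78 on the same scale. ALDH3A1 had a log2 fold change of 3.004 ± 1.97, carried by replicate 2 of flagellin, and of -1.05 without that library. The adjusted p of all 7 genes was 1.00 by edgeR. The change of the flagellin effect between the times was tested as an interaction, and its adjusted p was 1.00 for every member.

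SB203580 plus flagellin against flagellin was 1 of the comparisons by which the genes were chosen. At 24 h CYP1A1 averaged 68.8 ± 71.9 CPM with the inhibitor and 6.18 ± 3.59 CPM without it (SD, n = 4 each), an 11.1-fold ratio of means and a fitted log2 fold change of 3.48 ± 0.94 (SE), or 2.499 without replicate 1 of SB203580 plus flagellin. CYP1B1 averaged 143 ± 74.5 CPM with SB203580 and 35.1 ± 9.21 CPM without it, a 4.09-fold ratio and a log2 fold change of 2.03 ± 0.53. These are the 2 of 7 members whose 4 cultures with SB203580 all lay above the 4 without; 126 of the 14172 genes did so (0.889%). The ratio for CYP1A1 was 5.58 in replicates 3 and 4 and 11.9 in replicates 1 and 2, and that for CYP1B1 was 3.09 and 4.66. AHRR was higher in 4 of 4 replicate numbers, with a log2 fold change of 0.93 ± 0.78, or 0.42 without replicate 1 of SB203580 plus flagellin, and ranges that overlap. The other members moved little beside their error, with log2 fold changes of 0.02 ± 0.29 for TIPARP, -0.07 ± 0.17 for AHR and -0.01 ± 0.08 for ARNT. ALDH3A1 stood at -1.20 ± 1.84, and at 2.82 without replicate 2 of flagellin.

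No gene of the whole table passed edgeR's test in that comparison (0 of 14172, 0%), while 405 had an unadjusted p under 0.05 and DESeq2 called 1. The 7 matched ciliated markers summed to 24.1, 22.5, 31.6 and 30.4 CPM in SB203580 plus flagellin at 24 h, against 56.7, 33.4, 24.4 and 20.0 CPM in flagellin. They were thus higher with SB203580 in replicates 3 and 4 and lower in replicates 1 and 2. The mean log2 CPM of the 4 matched squamous markers was 9.75, 8.63, 7.10 and 6.52 in SB203580 plus flagellin. In flagellin it was 7.66, 10.3, 6.70 and 7.14, so it was higher with SB203580 in replicates 1 and 3 and lower in replicates 2 and 4. The 7 matched leukocyte markers summed to 145, 51.2, 36.6 and 41.4 CPM in SB203580 plus flagellin, against 43.8, 38.3, 28.3 and 25.6 CPM in flagellin. Among them PTPRC was at no more than 0.113 CPM in either, whereas over the 24 libraries CD14 reached 119 CPM and CD68 28.4 CPM. Replicates 1 and 2 of SB203580 plus flagellin are 2 of the 5 libraries with the lowest ciliated levels among replicates 1 and 2. Without those 5 libraries, a choice made after seeing the data, the log2 fold change at 24 h was 1.69 ± 1.01 for CYP1A1, 1.34 ± 0.62 for CYP1B1 and -0.53 ± 0.85 for AHRR. That leaves replicates 3 and 4 of SB203580 plus flagellin against replicates 1, 3 and 4 of flagellin, so treatment and replicate set cannot be told apart in these 3 values. Within replicates 3 and 4 the ratios were 5.77 and 5.40 for CYP1A1, 3.18 and 2.99 for CYP1B1, and 2.004 and 2.39 for AHRR. The part of the marker levels in the result was not tested.

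At 2 h the same comparison gave smaller values for the CYP1 pair. CYP1A1 averaged 148 ± 115 CPM in SB203580 plus flagellin and 47.2 ± 28.0 CPM in flagellin, a log2 fold change of 1.65 ± 0.86. CYP1B1 averaged 508 ± 282 CPM against 229 ± 115 CPM, a log2 fold change of 1.15 ± 0.52. Both were higher with SB203580 in 4 of 4 replicate numbers, but the ranges of the groups overlapped, as they did for the other 5 members; 364 of 14172 genes had ranges that did not overlap (2.57%). The fold changes of AHR, ARNT, AHRR and TIPARP were between -0.08 and 0.20 on the log2 scale. ALDH3A1 stood at 1.63 ± 1.88, and at -0.34 without replicate 1 of SB203580 plus flagellin. Over all genes 1 of 14172 passed (0.00706%).

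**Figure D3:**
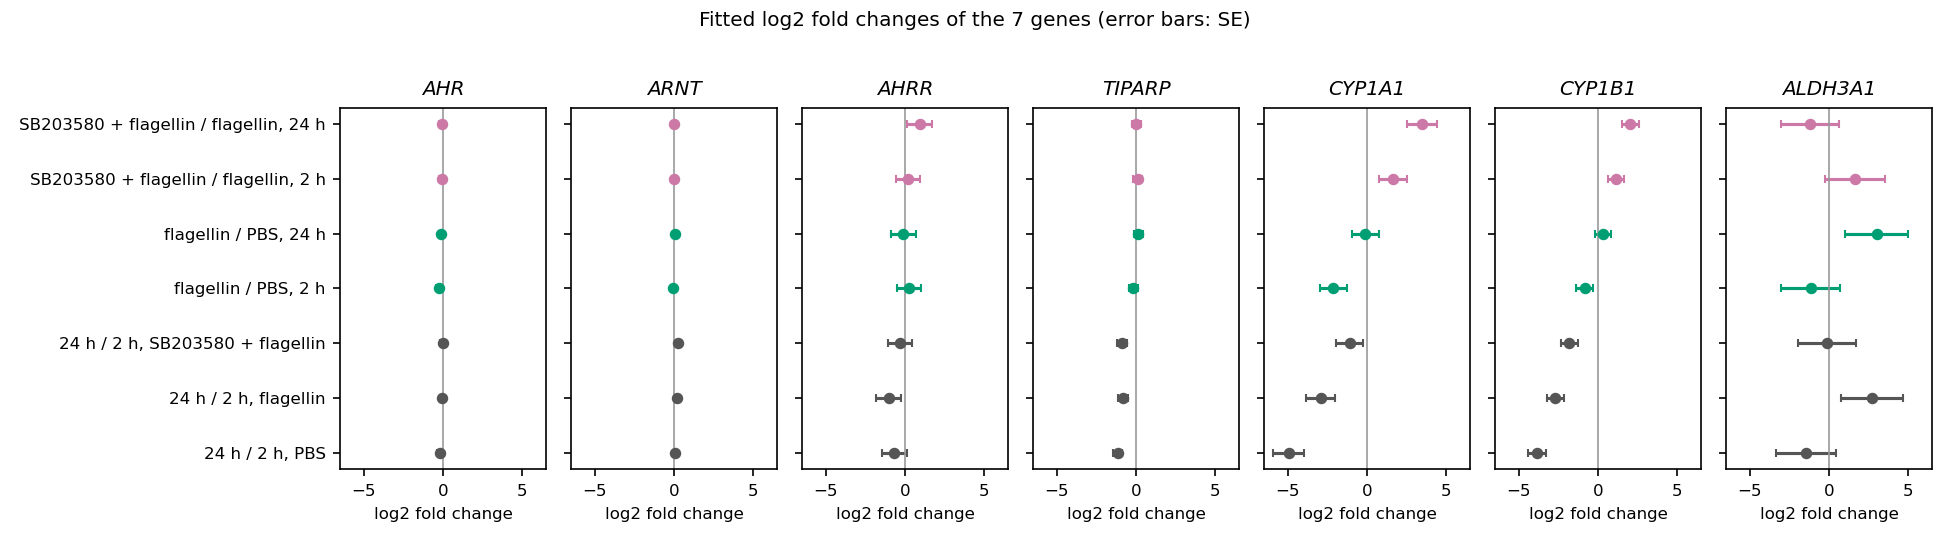
Fitted log2 fold change with its standard error (SE) for each of the 7 genes in 7 comparisons, given from top to bottom for SB203580 plus flagellin over flagellin, flagellin over PBS, and 24 h over 2 h. The CYP1 pair reaches 3.48 and 2.03 with SB203580 at 24 h and -4.96 and -3.88 over time in PBS, while AHR and ARNT stay between -0.24 and 0.23.

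Time in culture was the other comparison by which the genes were chosen. In PBS, CYP1A1 averaged 6.63 ± 3.97 CPM at 24 h and 206 ± 234 CPM at 2 h (SD, n = 4 each), and its fitted log2 change was -4.96 ± 1.00 (SE), or -3.79 without replicate 3 of PBS at 2 h. CYP1B1 averaged 28.2 ± 7.88 CPM at 24 h and 416 ± 341 CPM at 2 h, a log2 fold change of -3.88 ± 0.58, or -3.21 without that library. TIPARP averaged 220 ± 17.9 CPM at 24 h and 490 ± 188 CPM at 2 h, with a log2 fold change of -1.16 ± 0.29. For these 3 of the 7 genes every PBS culture of 24 h was below every PBS culture of 2 h, as for 1168 of all 14172 genes (8.24%). AHR, ARNT and AHRR differed by -0.17 ± 0.17, 0.07 ± 0.08 and -0.68 ± 0.78 on the log2 scale, and ALDH3A1 by -1.47 ± 1.89.

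Both CYP1 genes were also lower at 24 h than at 2 h in flagellin, and on average in SB203580 plus flagellin. CYP1A1 had a log2 fold change of -2.94 ± 0.92 in flagellin and CYP1B1 of -2.71 ± 0.55, and these 2 of 7 members had every culture of 24 h below every culture of 2 h (1009 of 14172 genes, 7.12%). In SB203580 plus flagellin CYP1B1 stood at -1.82 ± 0.53 and was the 1 member of 7 with that separation (833 genes, 5.88%). CYP1A1 was at -1.10 ± 0.85 there and was split by replicate number. In replicates 3 and 4 it averaged 0.0747 times its 2 h level, whereas in replicates 1 and 2 it averaged 1.99 times that level. TIPARP stood at -0.82 ± 0.29 in flagellin and at -0.89 ± 0.29 in SB203580 plus flagellin. ALDH3A1 stood at 2.70 ± 1.94 and -0.13 ± 1.82 in the same order. Without replicate 2 of flagellin at 24 h, its value in flagellin was -1.32. The difference in time effect between treatments was not tested.

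The difference between replicates 3 and 4 and replicates 1 and 2 did not enter the choice of the genes, and it was tested. The split itself is not in the labels and was seen in earlier results of these cultures. Its test therefore uses the data in which it was found. Each side holds 2 replicate numbers carried through the 3 treatments, and its libraries were tested as independent. The p-values thus describe the spread among libraries, not among replicates. Over both times 3 of the 7 genes passed edgeR's test, beside 63.1% of all genes. ALDH3A1 was lower in replicates 3 and 4 by a log2 value of -6.15 (adjusted p = 2.19e-09 by edgeR), while AHR was higher by 0.24 (0.0208) and ARNT by 0.13 (0.00421). AHR lost its call when replicate 2, 3 or 4 was left out, with adjusted p by edgeR between 0.0575 and 0.161. The direction of the CYP1 genes depended on the time. At 2 h CYP1A1 averaged 221 ± 180 CPM in replicates 3 and 4 and 46.6 ± 31.8 CPM in replicates 1 and 2 (SD, n = 6 each), a log2 difference of 2.08 ± 0.38 (SE; adjusted p = 2.15e-04 by edgeR). At 24 h it averaged 8.15 ± 7.96 CPM in replicates 3 and 4 and 46.2 ± 65.3 CPM in replicates 1 and 2, a log2 difference of -2.02 (adjusted p = 4.06e-04 by edgeR). At 2 h 4 of 7 members passed, CYP1A1, CYP1B1, TIPARP and ALDH3A1, beside 52.0% of all genes. At 24 h all 7 passed, beside 64.6% of all genes.

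The change of this difference from 2 h to 24 h was fitted as 1 contrast, by which 35.0% of all genes passed, with the same limits. It equals the effect of time compared between the 2 replicate sets, and time entered the choice of the genes. Its values for the members are therefore a description, with no test. On the log2 scale the change was -4.10 ± 0.57 (SE) for CYP1A1, -2.38 ± 0.28 for CYP1B1, -2.82 ± 0.57 for AHRR and -1.23 ± 0.13 for TIPARP. AHR had the opposite sign, 0.52 ± 0.13. ARNT stood at 0.08 ± 0.06 and ALDH3A1 at -0.59 ± 1.21. In PBS, CYP1A1 at 24 h was at 0.0108 times its 2 h level in replicates 3 and 4 and at 0.219 times in replicates 1 and 2. AHRR in PBS averaged 0.201 times its 2 h level in replicates 3 and 4 and 1.003 times in replicates 1 and 2. The value of 0.201 rests on replicate 3, at 0.0429 times its 2 h level, while replicate 4 was at 0.941 times. What set these replicates apart is not given in the labels.

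CYP1A1 and CYP1B1 moved together within each replicate set. Pearson's r of their log2 CPM was 0.989 over the 12 libraries of replicates 3 and 4 and 0.874 over the 12 of replicates 1 and 2, and CYP1B1 was the gene most like CYP1A1 of the whole table by the lower of these values. These 12 points share the 6 groups, so r is a description of them. With CYP1A1, TIPARP had r = 0.929 in replicates 3 and 4 and 0.546 in replicates 1 and 2, AHRR had 0.859 and 0.497, and AHR had -0.482 and 0.259 in the same order.

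**Figure D4:**
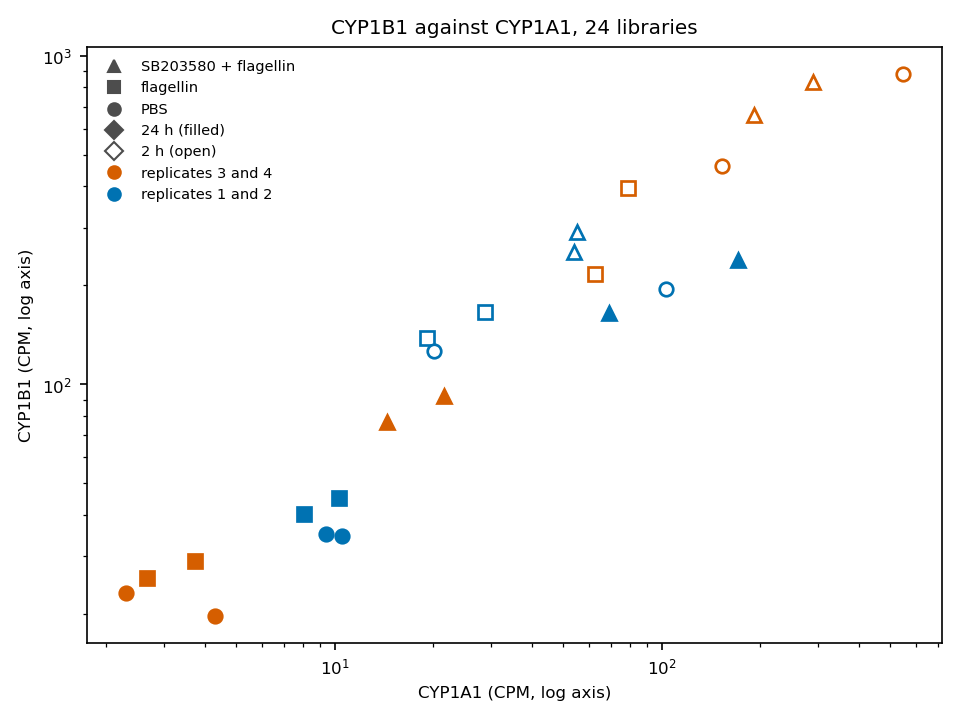
Level of CYP1B1 against CYP1A1 in CPM (counts scaled to library size, both axes logarithmic) in 24 libraries; marker shape gives the treatment, filled markers are 24 h and open markers 2 h, and colour gives the replicate numbers. The libraries form 1 rising band from 2.29 to 547 CPM of CYP1A1, with flagellin and PBS at 24 h at its low end.

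Outside the 7 members, the 8 genes with a symbol whose pattern was most like that of CYP1A1 were NFE2L2, ITPRIPL2, UXS1, PLEKHG1, CSGALNACT2, EVA1A, ELOVL6 and GOT2. The lower of their 2 values of r was between 0.788 and 0.865. NFE2L2 encodes NRF2, the transcription factor of the antioxidant response, and is a reported AHR target in the mouse. It had 242, 233, 165 and 155 CPM in SB203580 plus flagellin at 24 h, against 146, 136, 147 and 150 CPM in flagellin and 154, 134, 136 and 142 CPM in PBS. At 2 h it was 252, 176, 229 and 209 CPM in SB203580 plus flagellin, against 195, 202, 202 and 211 CPM in flagellin and 207, 239, 230 and 183 CPM in PBS. All 4 cultures with SB203580 at 24 h were above the 8 others of that time. NFE2L2 was picked for its likeness to CYP1A1 over these same libraries, so this separation is partly built in. How many genes of the whole table shared it was not counted. The log2 fold change of NFE2L2 over flagellin was 0.45 with an adjusted p of 1.00 by edgeR.

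The remaining parts of the pathway were described by lists, chosen with earlier results of these cultures known. Of 24 other reported AHR target genes 17 were tested. At 24 h against 2 h in PBS 1 was higher and 4 were lower, and the median log2 fold change of the list was -0.60, beside -0.01 over all genes, of which 10.2% passed. The 4 that fell were NFE2L2, the growth factor AREG, the cystine transporter SLC7A11 and the Notch target HES1. SLC7A11 averaged 36.7 ± 5.84 CPM at 24 h and 83.8 ± 32.6 CPM at 2 h (SD, n = 4 each), and fell by 1.19 on the log2 scale (adjusted p = 0.0347 by edgeR). AREG averaged 39.2 ± 12.5 CPM at 24 h and 83.0 ± 17.6 CPM at 2 h, with -1.08 (0.0136), and HES1 averaged 45.0 ± 5.47 CPM and 89.8 ± 9.86 CPM at those times, with -0.997 (0.00147). NFE2L2 fell by 0.60 on the log2 scale (adjusted p = 0.00666 by edgeR). STC2, a secreted glycoprotein, rose to 18.4 ± 4.89 CPM at 24 h, against 6.49 ± 0.444 CPM at 2 h, by a log2 value of 1.504 (adjusted p = 1.08e-04 by edgeR).

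In flagellin 2 of the 17 rose over time and 3 fell, with 7.90% of all genes called and a list median of -0.52. STC2 and the epithelial cytochrome CYP2S1 rose by 1.88 and 1.55, while AREG, HES1 and NFE2L2 fell by 0.90, 0.69 and 0.48 on the log2 scale (adjusted p by edgeR of 0.0422 or below). In SB203580 plus flagellin STC2 (2.11) and CYP2S1 (1.35) rose and none fell, with 6.88% of all genes called. The replicate number taken as a block gave 8, 8 and 3 fallen genes in PBS, flagellin and SB203580 plus flagellin. With the block 11.4%, 9.26% and 8.42% of all genes were called lower, in the same order. NQO1, a quinone reductase and a classical AHR and NRF2 target, averaged 229 CPM at 24 h and 1050 CPM at 2 h in PBS, with a log2 fold change of -2.20 ± 1.13 (adjusted p = 0.240 by edgeR, and 0.0455 with the block). The median of the list was 0.048 for SB203580 plus flagellin against flagellin at 24 h and 0.0080 at 2 h, and 0.18 for flagellin against PBS at 24 h and -0.17 at 2 h, beside 0.0029, 0.012, 0.016 and -0.0027 over all genes. No gene of this list passed for flagellin against PBS or for SB203580 plus flagellin against flagellin at either time by edgeR. With the block CDKN1B was lower with flagellin at 2 h (adjusted p = 0.0328 by edgeR), where 0.261% of all genes were called lower.

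**Figure D5:**
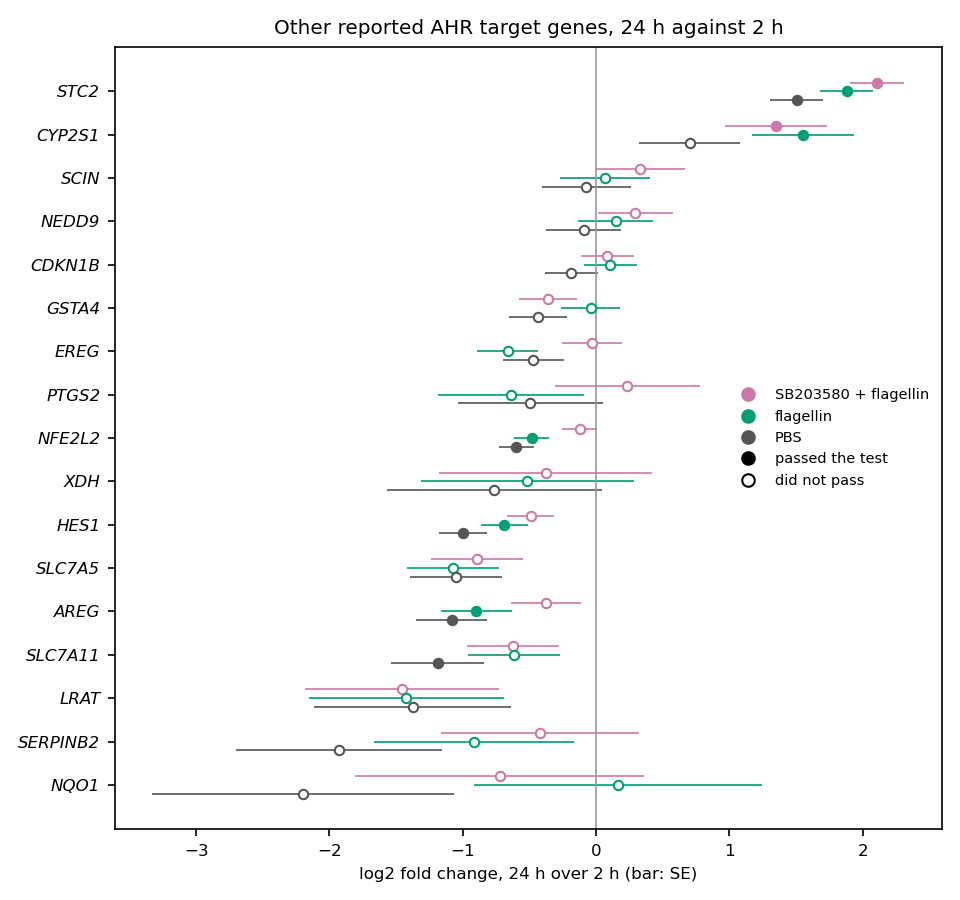
Log2 fold change of 24 h over 2 h with its standard error (SE) for 17 other reported AHR target genes in each treatment; filled points passed edgeR's test at an adjusted p under 0.05. STC2 (1.504 to 2.11) passed in all 3 treatments, and NFE2L2, AREG and HES1 lie below 0 and passed in flagellin and PBS.

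Of the 19 genes for the receptor's chaperones, alternative partners and coactivators, 17 were tested. RELB, an NF-kappaB subunit that can pair with AHR, was the 1 that passed for flagellin at 2 h, at 45.4 ± 10.9 CPM in flagellin and 21.2 ± 2.71 CPM in PBS (log2 fold change 1.10, adjusted p = 0.0301 by edgeR). The list's median there was 0.02, beside -0.0027 over all genes, of which 0.325% passed. Over time in PBS 2 rose, the coactivator NCOA3 (0.31) and DDB1 of the CUL4B ubiquitin ligase (0.25), and 2 fell, the ARNT-related clock factor BMAL1 (-0.93) and the hypoxia factor EPAS1 (-0.77), with adjusted p by edgeR of 0.0327 or below. The block made that 2 and 5, where 11.0% of all genes were called higher and 11.4% lower. In flagellin NCOA3 (0.36) rose and BMAL1 (-0.98), the coactivator NCOA7 (-1.05) and RELB (-0.73) fell, and in SB203580 plus flagellin NCOA3 (0.27) rose and BMAL1 (-0.94) fell (adjusted p by edgeR of 0.0476 or below). The medians over time were -0.24, -0.19 and -0.18 in PBS, flagellin and SB203580 plus flagellin, beside -0.01, 0.01 and 0.01 over all genes. Of all genes 10.2%, 7.90% and 6.88% passed over time, in the same order. ARNT2, a paralogue of ARNT, did not pass in any treatment or time comparison, and averaged 7.09 CPM in SB203580 plus flagellin and 3.72 CPM in flagellin at 24 h.

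The route from tryptophan to kynurenine, a source of AHR ligands, was followed by its enzymes and transporters. Over time 10.2%, 7.90% and 6.88% of all genes passed in PBS, flagellin and SB203580 plus flagellin. Of 11 tested genes of 14, KYAT1, a kynurenine aminotransferase, rose over time in PBS, at 17.4 ± 1.78 CPM at 24 h and 11.5 ± 1.00 CPM at 2 h (log2 fold change 0.60, adjusted p = 0.00590 by edgeR). None of the others passed in a comparison of treatments or times, and the list's medians over time were -0.24, -0.40 and -0.30 in PBS, flagellin and SB203580 plus flagellin, beside -0.01, 0.01 and 0.01 over all genes. With the block 3 fell over time in PBS, 3 in flagellin, among them IDO1 (adjusted p = 0.00732 by edgeR), and 1 in SB203580 plus flagellin, the amino acid transporter SLC7A5. Beside these, 11.4%, 9.26% and 8.42% of all genes were called lower by that fit in PBS, flagellin and SB203580 plus flagellin. Of 46 genes of general xenobiotic metabolism 28 were tested, with medians of -0.21, -0.16 and -0.06 in the same order. CYP27A1, a mitochondrial sterol hydroxylase, rose over time in PBS (1.44) and in flagellin (1.00), FMO1, a flavin monooxygenase, fell in flagellin (-1.12), and POR, the reductase that feeds electrons to cytochromes P450, fell in SB203580 plus flagellin (-0.49), with adjusted p by edgeR of 0.0479 or below. Neither list had a gene that passed for flagellin or for SB203580 plus flagellin at either time.

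ALDH3A1 levels moved with markers of cell state among replicates 1 and 2. The 5 libraries lowest in ciliated markers (summed level 22.5 to 33.4 CPM, against 41.1 to 78.0 CPM in the other 7) had 7.01 to 44.1 CPM of ALDH3A1, and the other 7 had 1.78 to 5.69 CPM, with no overlap. The same 5, picked after the data were seen, were higher in the mean log2 CPM of the 4 matched squamous markers of 9. It was 8.63 to 10.3, against 7.54 to 8.48. The summed levels of these markers overlapped, at 5462 to 10874 CPM against 1936 to 6625 CPM. For CYP1A1 the ranges overlapped, at 8.02 to 170 CPM in the 5 and 9.40 to 53.9 CPM in the other 7. Those of CYP1B1 did so too, at 40.3 to 290 CPM and 34.7 to 252 CPM. Both ranges pool the treatments and times, over which these 2 genes differed widely, so no conclusion is drawn from the overlap. The part of cell state in these levels was not tested.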

How the data were processed

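RNA of 24 cultures had been sequenced in pairs of reads, per the labels. The deposited file holds whole-number counts of read pairs or reads per gene, as deposited and not normalized; the authors used STAR 2.4.0a, featureCounts and Subread 1.4.6-p1, per the submitters' processing notes. The notes name GRCm38, a mouse build, whereas the features are pig genes; which pig assembly was used, and whether counting respected strand, is not given in the sources used here. Coordinates are those of the deposited table, and overlapping or antisense genes cannot be told apart. The 5988 non-pig features (0.00131% of counts) entered neither library sizes nor tests. A reference table gave symbols to 14857 of 25880 pig gene identifiers.

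Counts were scaled by TMM, filtered by filterByExpr and tested with edgeR 4.0.16 in R 4.3.3 (quasi-likelihood F test, robust, 24 libraries, 1 term per group, 18 residual degrees of freedom, Benjamini-Hochberg over 14172 genes, threshold 0.05); the script was tested on simulated data. SE was taken as the size of the log2 fold change over the root of its F value. Log2 CPM for correlations had a prior count of 2. Alternatives were DESeq2 1.42.0, other scaling, no filter, the replicate number as a block, a term for replicates 3 and 4 at each time, either replicate pair alone, and leaving out libraries. The deviations of same-numbered libraries from their group means correlated at 0.344 to 0.797 in every pair, above 0.1, so the numbers were taken to pair the samples. The main fit did not use this pairing, and the fit with the block did. Libraries of the same replicate set with another number correlated at 0.259 to 0.766. These correlations therefore cannot tell pairing by number from likeness within a replicate set. No libraries of a group were duplicates (chi-square per gene 10.2 to 390 over 36 pairs). The members and lists were chosen with earlier results of these data known. Named besides the members are, from each list and comparison, up to 6 genes that passed, by size of change, with ARNT2 in any case, and the 8 genes most like CYP1A1; NQO1, CDKN1B, IDO1 and SLC7A5 were named after their values were seen.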

Additional observations from a re-analysis of the deposited data

Results flagged for a closer look

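Within a group of 4 libraries, 2 values lay far from the other 3: AHRR in replicate 3 of PBS at 24 h, at 0.371 CPM, and ALDH3A1 in replicate 2 of flagellin at 24 h, at 44.1 CPM. Of 42 sets of 4 values examined, about 1 in 20 would be marked by chance. The effect of 24 h against 2 h over the 3 treatments was compared between replicates 3 and 4 and replicates 1 and 2. As a description, with the limits given above, the log2 difference was -4.10 for CYP1A1, -2.38 for CYP1B1, 0.52 for AHR, -2.82 for AHRR and -1.23 for TIPARP.

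For the values that follow, both libraries of replicates 3 and 4 moved one way and both of replicates 1 and 2 the other, and the difference in mean log2 ratio was not tested within the single comparison. For 24 h against 2 h in SB203580 plus flagellin it was -4.73 for CYP1A1, -3.63 for AHRR and 0.44 for AHR. For 24 h against 2 h in flagellin it was 0.78 for AHR, and in PBS it was 2.22 for ALDH3A1. AHR gave 0.44 for flagellin against PBS and -0.49 for SB203580 plus flagellin against flagellin, both at 24 h. ALDH3A1 gave 1.85 for flagellin against PBS at 2 h, where its counts in replicates 3 and 4 were near the level of 3 counts.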

How the results depend on the processing

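Counts of genes that passed edgeR's test depended on how the 2 replicate sets entered the fit. For flagellin against PBS at 2 h, 46 genes passed; this was 151 with the replicate block, 318 with a set term at each time, 198 in replicates 3 and 4 alone, 20 in replicates 1 and 2 alone, 105 by DESeq2, and 15 to 42 leaving out single libraries (15 without replicate 3 of PBS at 2 h). At 24 h it was 0, and 1 by DESeq2. For SB203580 plus flagellin against flagellin at 2 h, 1 gene passed, against 5 with the block, 53 with the set term, 93 in replicates 3 and 4, 0 in replicates 1 and 2, 14 by DESeq2 and 3 without the 5 libraries low in ciliated markers, with 1 to 2 leaving out single libraries. At 24 h it was 0, against 13 with the set term, 1 in replicates 3 and 4, 2 in replicates 1 and 2 and 1 by DESeq2. For 24 h against 2 h in PBS, 1440 became 3183 with the block, 4878 with the set term, 3478 in replicates 3 and 4 and 835 to 1319 leaving out single libraries. In flagellin 1120 became 2664, 4427, 3860 and 710 to 1029 in the same order. In SB203580 plus flagellin 975 became 2422 with the block, 4354 with the set term, 3440 in replicates 3 and 4, 1540 in replicates 1 and 2, 1486 by DESeq2 and 625 to 836 leaving out single libraries. The cause was not tested. For 24 h against 2 h, the fit with the set term gives the effect in replicates 1 and 2, so its counts answer another question than those beside them. For flagellin against PBS, the block changed no member's call. DESeq2 also called AHRR (-0.94, adjusted p = 0.0437) and TIPARP (0.33, 0.0445) between the sets. Some log2 fold changes that had not passed changed sign. For flagellin against PBS at 24 h these were AHRR at 0.33 in replicates 1 and 2, AHR at 0.066 and TIPARP at -0.055 in replicates 3 and 4, and AHR at 0.087 and ALDH3A1 at -1.04 without the 5 libraries. Leaving out single libraries there gave -0.47 to 0.21 for CYP1A1, -0.24 to 0.083 for AHR, -0.88 to 0.24 for AHRR, -0.00043 to 0.22 for TIPARP and -1.05 to 3.84 for ALDH3A1. At 2 h TIPARP ranged from -0.35 to 0.054. CYP1A1 between replicates 3 and 4 and replicates 1 and 2 over both times ranged from -0.42 to 0.83. In ALDH3A1 the counts of replicates 3 and 4, near 3 per library, limit any comparison.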
